A study of Homo sapiens with 6 samples.

Results

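The MAGE (melanoma antigen) genes were examined in 6 human prostate cancer cell lines, with 1 RNA library per line. Members were the protein-coding entries of the deposited tables whose name starts with MAGE and a further capital letter, 34 of 51698 entries (34 of 19959 protein-coding ones). They comprised 25 type I genes, namely 12 MAGEA, 10 MAGEB and 3 MAGEC genes, and 9 type II genes, namely MAGED1, MAGED2, MAGED4, MAGED4B, MAGEE1, MAGEE2, MAGEF1, MAGEH1 and MAGEL2. No 2 members shared a name, so none had to be summed. In coordinates of the hg18 build, all 25 type I genes lay on chromosome X, as did the type II genes other than MAGEF1 on chromosome 3 and MAGEL2 on chromosome 15.

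The castration-sensitive lines were LnCaP and LAPC4, grown in RPMI, and VCaP, grown in DMEM, each with 10% serum. The castration-resistant lines were LnCaP-abl, VCaP-CR and LAPC4-CR, all grown in RPMI with 10% charcoal-stripped serum, from which steroids are depleted, and B27 supplement. No other treatment was given. Resistance and medium therefore changed together in each of the 3 pairs of parent and resistant line, and for VCaP the basal medium changed as well. These are established lines and each is represented by 1 library, so a difference within a pair has no replicate check and carries no p-value.

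MAGE proteins share a conserved MAGE homology domain, through which many of them bind RING-type E3 ubiquitin ligases and steer which proteins the ligase marks for degradation. Type I genes are normally silent outside the testis and placenta, where DNA methylation of their promoters is a known barrier, and they are switched on in many tumours, which is why they are called cancer-testis antigens. Type II genes are expressed in many normal tissues.

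Promoter sequences show how closely some of the MAGEA genes are related. RefSeq windows on GRCh38.p14 were found for 30 of the 34 members, 10 of the 12 MAGEA genes among them. The 250 bases before the start of MAGEA3 were identical to those of MAGEA6, as were those of MAGEA2 to MAGEA2B and of MAGEA9 to MAGEA9B. The longest stretch that all 10 MAGEA genes held in at least 1 such window was GGATGTGAC, a length of 9 bases found by comparing the sequences. MAGEA4 has 5 starts in the table, and the windows of the other 4 did not hold it. On either strand it was present in 0.256% of all 35116 promoter windows of the same length. On the strand of the gene it was present in 1 of 9 MAGEB genes (MAGEB16), 0 of 3 MAGEC genes and 0 of 8 type II genes. The first share counts windows and the others count genes with any such window, so they are not like for like. The following 4 windows are shown because MAGEA3 and MAGEA12 belong to the block that LnCaP and LAPC4 cells expressed, MAGEA4 had the largest difference within a pair and MAGEA9 was low in every library. They are written 5′ to 3′ with the shared stretch in capitals.
MAGEA3, chrX:152698544-152698793, plus strand: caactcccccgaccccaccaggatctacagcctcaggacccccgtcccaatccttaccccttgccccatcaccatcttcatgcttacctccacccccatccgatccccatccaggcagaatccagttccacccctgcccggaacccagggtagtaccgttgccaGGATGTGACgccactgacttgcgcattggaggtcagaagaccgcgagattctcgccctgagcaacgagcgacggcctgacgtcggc
MAGEA12, chrX:152733507-152733756, plus strand: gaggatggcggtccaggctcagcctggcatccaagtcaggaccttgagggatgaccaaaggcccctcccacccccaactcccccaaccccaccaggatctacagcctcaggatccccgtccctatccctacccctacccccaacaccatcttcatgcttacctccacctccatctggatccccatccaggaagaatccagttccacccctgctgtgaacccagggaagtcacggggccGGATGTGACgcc
MAGEA4, chrX:151912224-151912473, plus strand: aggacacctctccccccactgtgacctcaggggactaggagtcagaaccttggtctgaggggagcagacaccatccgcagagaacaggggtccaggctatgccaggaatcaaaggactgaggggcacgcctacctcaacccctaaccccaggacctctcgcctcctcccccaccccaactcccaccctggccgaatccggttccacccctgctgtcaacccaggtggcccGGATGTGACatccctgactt
MAGEA9, chrX:149781680-149781929, plus strand: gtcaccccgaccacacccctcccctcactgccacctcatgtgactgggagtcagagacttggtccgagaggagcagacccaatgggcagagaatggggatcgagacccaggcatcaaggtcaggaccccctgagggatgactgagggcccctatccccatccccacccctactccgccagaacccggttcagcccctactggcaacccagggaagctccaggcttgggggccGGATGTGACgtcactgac
The stretch was chosen because all MAGEA genes with a window held it. Its presence both in genes at high levels and in a gene near the limit of detection follows from that choice. MAGEA1 and MAGEA10 had no window. The match is a description of these letters and not of a bound factor.

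The transcripts, which decide how well reads can be told apart, also shared long stretches. Of all windows of 50 bases in the GENCODE 29 transcripts, 96.4% of those of MAGEA2 also occurred in MAGEA2B, 94.0% of those of MAGEA9 in MAGEA9B, 99.0% of those of MAGED4 in MAGED4B and 54.9% of those of MAGEA3 in MAGEA6. For MAGEA12, 13.3% occurred in another member, and for MAGEA1, MAGEA4, MAGEA10 and MAGEA11 at most 1.1%. With windows of 35 bases the shares in any other member were higher, at 26.2% for MAGEA12, 68.2% for MAGEA3, 4.0% for MAGEA4, 3.3% for MAGEA1, 1.1% for MAGEA10 and 0.2% for MAGEA11, and the read length is not given in the sources used here. How the counting treated reads that match several genes is not given in the sources used here, so the split between the members of such a pair is uncertain, while MAGEA1, MAGEA4, MAGEA10, MAGED1, MAGED2, MAGEF1 and MAGEH1 shared 4.0% of windows or less with other members.

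Total counts lay between 8661337 and 22433655 per library, with more counts from each resistant line than from its parent. ERG, which is fused in VCaP, stood at 16.9 in VCaP and 5.46 in VCaP-CR on the scaled FPKM scale (the deposited FPKM, fragments normalised to gene length and library size, divided by a median-ratio factor per library) and at most 0.186 elsewhere. Of 6 luminal prostate markers, all reached 1 scaled FPKM in 5 libraries. The exception was KLK3, the gene of prostate-specific antigen, at 0.649 in LnCaP-abl, and KLK3 was lower in each resistant line, with log2 changes of -8.53, -4.03 and -5.18. HOXB13, a prostate lineage factor, was at 1.60 in LAPC4-CR and at 31.3 to 65.8 in the other libraries. Of 8 male germ cell markers, 0 had a mean of 1 scaled FPKM, and their summed level was 1.45 to 2.87. Only SYCP3, a meiosis gene, reached 1, at 1.21 in LnCaP-abl and 1.20 in VCaP-CR. The part of these shifts in lineage markers in the MAGE results was not tested.

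The type I genes divided the lines by lineage. Their summed level was 206.8 scaled FPKM in LnCaP, 325.3 in LnCaP-abl, 173.6 in LAPC4 and 209.7 in LAPC4-CR, against 7.58 in VCaP and 10.6 in VCaP-CR. The LnCaP and LAPC4 lineages were thus far above the VCaP lineage whether parent or resistant line was taken. The summed level of the type II genes ranged only from 64.1 in LnCaP to 109.1 in LAPC4-CR, with 84.9 in VCaP and 94.4 in VCaP-CR. The type I sum was 3.23 times the type II sum in LnCaP, 3.14 times in LnCaP-abl, 1.68 times in LAPC4 and 1.92 times in LAPC4-CR, but 0.089 times in VCaP and 0.113 times in VCaP-CR. In a bulk library a low level cannot tell fewer expressing cells from less RNA per cell.

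**Figure D1:**
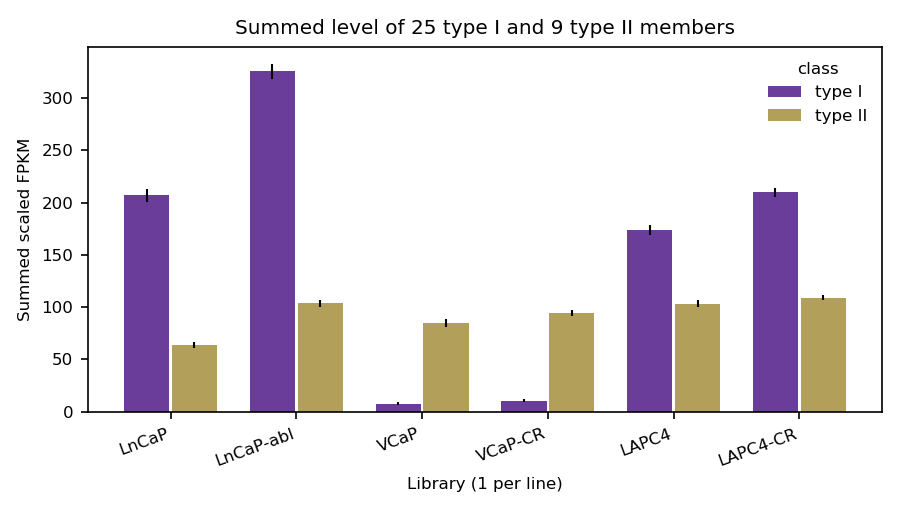
Bars give the summed scaled FPKM (vertical axis) of the 25 type I and 9 type II genes in each of the 6 libraries, and error bars give the exact 95% Poisson interval of the summed count, scaled to the bar (counting error only). Type I bars reach 173.6 to 325.3 in the LnCaP and LAPC4 lineages and 7.58 and 10.6 in the VCaP lineage, while type II bars lie between 64.1 and 109.1.

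Counted as genes, 8 of the 25 type I genes reached 1 scaled FPKM in LnCaP, 9 in LnCaP-abl and 7 each in LAPC4 and LAPC4-CR. In VCaP 1 did, MAGEB1, and in VCaP-CR 3 did, MAGEB1, MAGEA3 and MAGEA6. The type II genes had 4 of 9 at this level in every library, although not the same 4. Of all 19951 protein-coding symbols, 54.3% reached it in both libraries of the LnCaP pair. VCaP had 54.1% and VCaP-CR 53.7%, LAPC4 had 53.2% and LAPC4-CR 52.7%. The type I share was below this background in each library, and the type II share of 4 in 9 was not far under it.

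**Figure D2:**
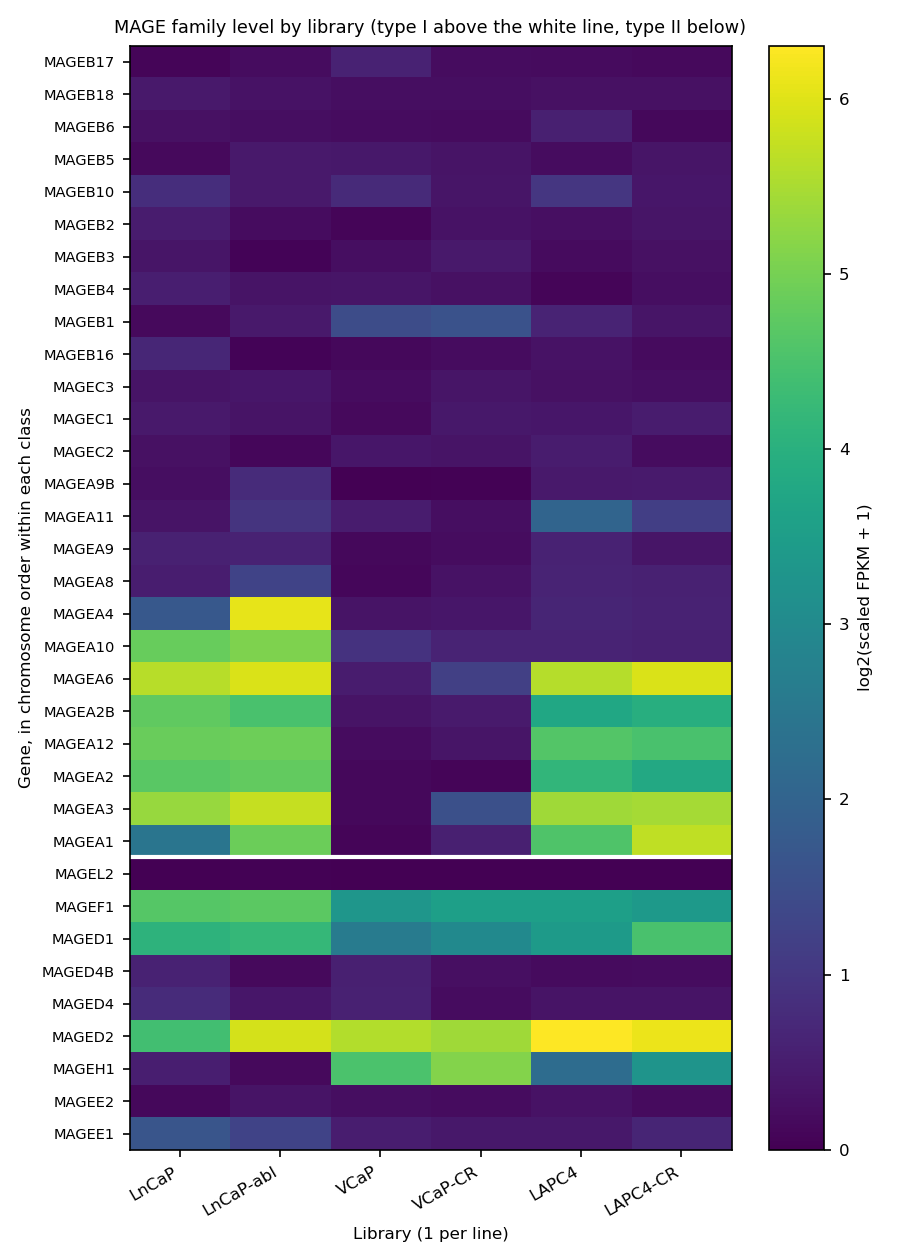
Colour gives the level of each of the 34 members as log2(scaled FPKM + 1) in the 6 libraries (columns), with type I genes above the white line and type II genes below, each in chromosome order. A run of bright rows from MAGEA6 to MAGEA3 is seen in LnCaP, LnCaP-abl, LAPC4 and LAPC4-CR, and MAGEF1, MAGED1 and MAGED2 are above 5 scaled FPKM in all 6 libraries.

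Within type I, the MAGEA branch made up nearly all of the sum in the LnCaP and LAPC4 lineages, with 169.5 to 322.5 scaled FPKM against 2.10 to 3.36 for MAGEB and 0.65 to 0.91 for MAGEC. In VCaP the MAGEB genes had the larger sum, 4.21 against 2.78 for MAGEA, and VCaP-CR had 3.99 against 5.80. Of the 10 MAGEB genes only MAGEB1 reached 1 scaled FPKM anywhere, at 1.77 in VCaP and 2.03 in VCaP-CR against 0.110 to 0.551 in the other 4 libraries. It rested on 34 and 64 counts in the VCaP lineage, and its entry overlaps that of MAGEB4 in these coordinates. None of MAGEC1, MAGEC2 and MAGEC3 reached it, and together these had 16 to 65 counts per library. In all, 14 type I genes stayed under 1 in every library, with 0 to 43 counts each: MAGEA9, MAGEA9B, the 3 MAGEC genes and the MAGEB genes other than MAGEB1. MAGEA9B had 0 counts in VCaP, which allows up to 0.169 scaled FPKM.

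MAGEA2, MAGEA2B, MAGEA3, MAGEA6 and MAGEA12 formed the core of the expressed set. They are neighbours on chromosome X between 151617870 and 151688896 (hg18), a block of 71.0 kb. MAGEA3 and MAGEA6 encode near-identical proteins that, together with MAGEA2 and MAGEC2, are known to bind the ligase TRIM28. The 5 genes summed to 167.0 scaled FPKM in LnCaP, 190.9 in LnCaP-abl, 141.3 in LAPC4 and 152.2 in LAPC4-CR, which was 80.7%, 58.7%, 81.4% and 72.6% of the type I sum. In VCaP they summed to 0.980 and in VCaP-CR to 3.86.

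Among the block genes MAGEA6 was the highest in each of these 4 libraries, at 48.3 scaled FPKM in LnCaP, 60.7 in LnCaP-abl, 47.6 in LAPC4 and 60.6 in LAPC4-CR. MAGEA3 followed at 39.5, 53.2, 41.1 and 42.6 in the same order. The 4 libraries differed from each other by less than 1.5-fold in either gene.
MAGEA12 was at 28.3, 29.1, 23.4 and 21.5, MAGEA2 at 24.8, 26.6, 16.8 and 13.05, and MAGEA2B at 26.2, 21.4, 12.4 and 14.5. These 3 genes were lower than MAGEA3 in each of the 4 libraries, and MAGEA2 and MAGEA2B were lower in the LAPC4 lineage than in the LnCaP lineage.

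In the VCaP pair only part of the block was seen. MAGEA3 had 2 counts in VCaP and 67 in VCaP-CR, a scaled level of 0.092 against 1.88 and a ratio of 20.4 (exact 95% counting interval 5.44 to 172.2). MAGEA6 had 7 and 38 counts, a ratio of 3.31 (1.46 to 8.79). MAGEA2 stood at 2 counts in both libraries, MAGEA12 at 3 and 9 with a ratio of 1.83 (0.457 to 10.5), and MAGEA2B at 6 and 14 with a ratio of 1.42 (0.514 to 4.52). The intervals of these 3 genes included no change.
Relative to MAGEA3, the other block genes were lower in VCaP-CR than in the LnCaP and LAPC4 lineages. MAGEA6 was at 0.675 times MAGEA3 in VCaP-CR (counting interval 0.441 to 1.02), against 1.14 to 1.42. MAGEA12 was at 0.153 times the FPKM of MAGEA3 there (counting interval 0.067 to 0.309), against 0.504 to 0.717 in the LnCaP and LAPC4 lineages. MAGEA2 was at 0.030 times MAGEA3 (0.0035 to 0.112), against 0.307 to 0.629. None of these intervals reached the lowest value of the same gene in the other 4 libraries. MAGEA2B was at 0.192 times MAGEA3 (0.0995 to 0.345) in VCaP-CR, against 0.302 to 0.663. It was thus lower too, but its interval reached the 0.302 of LAPC4. MAGEA2 and MAGEA2B are near-identical copies, so the split of their counts is uncertain. MAGEA3 shared 54.9% of its windows of 50 bases with MAGEA6, so the split between these genes is uncertain too. The ratio of 20.4 for MAGEA3 and the ratios to MAGEA3 rest on that split. A ratio to MAGEA3 also cannot tell a low gene from a high MAGEA3. These intervals cover counting error in single libraries and not the spread between cultures.

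**Figure D3:**
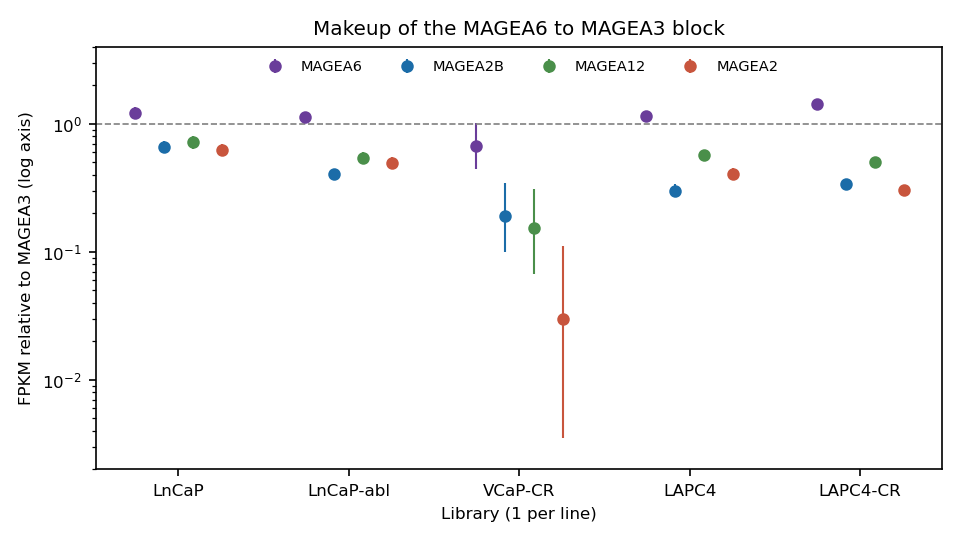
Points give the FPKM of MAGEA6, MAGEA2B, MAGEA12 and MAGEA2 relative to that of MAGEA3 in the same library (vertical log axis), and bars give exact 95% counting intervals; VCaP is left out because MAGEA3 had 2 counts there. MAGEA12 and MAGEA2 sit at 0.153 and 0.030 in VCaP-CR and at 0.307 or higher in the other 4 libraries.

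The other MAGEA genes were high in fewer libraries. MAGEA10 was at 27.5 scaled FPKM in LnCaP and 33.2 in LnCaP-abl and between 0.501 and 0.900 in the other 4 libraries. LAPC4 cells thus had the block but almost no MAGEA10, at 0.013 times MAGEA3. An overlapping noncoding entry, MAGEA5, had 3 to 33 counts, beside 695 and 1071 counts of MAGEA10 in the LnCaP lineage. How reads in the overlap were assigned is not given, and the part of MAGEA5 in the MAGEA10 counts was not tested. MAGEA11 was at 3.11 in LAPC4 and 1.25 in LAPC4-CR, at 0.927 in LnCaP-abl and at 0.180 to 0.384 in LnCaP, VCaP and VCaP-CR. MAGEA8 passed 1 only in LnCaP-abl, at 1.40 against 0.411 in LnCaP, on 39 and 9 counts.

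MAGEA4, whose protein binds the DNA repair ligase RAD18, had the largest change of any member. It was at 2.35 scaled FPKM in LnCaP and 66.2 in LnCaP-abl, where it became the highest type I gene with 20.4% of their sum. The ratio was 28.2 (counting interval 22.1 to 36.5) on 67 and 2414 counts. In VCaP and VCaP-CR it was at 0.265 and 0.304, and in LAPC4 and LAPC4-CR at 0.578 and 0.509, with ratios of 1.14 (0.455 to 3.11) and 0.880 (0.513 to 1.54). A difference beyond counting error was seen in the LnCaP pair alone, and whether the pairs differ was not tested because each has 1 library per state. Across the 3 pairs edgeR gave a log2 change of 1.82 (SE 1.14, adjusted p 0.723), and -0.014 without the LnCaP pair. Such p-values measure the spread between these 3 line pairs and not between repeat cultures of a line.

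MAGEA1, which encodes a tumour antigen first found in melanoma, was higher in the resistant line by more than counting error in each pair. LnCaP had 4.43 scaled FPKM and LnCaP-abl 28.6, VCaP had 0.060 and VCaP-CR 0.474, and LAPC4 had 22.6 and LAPC4-CR 51.2. MAGEA3, MAGEA6, MAGED1 and, on 0 to 17 counts, MAGEA9B were also higher in 3 of 3 pairs, although the interval of MAGEA3 included no change in the LAPC4 pair (1.04, 0.964 to 1.11). MAGEB6, MAGEB10 and MAGEC2 were lower in 3 of 3 pairs, on 2 to 25 counts per library and under the filter on low values. The share of all genes that kept 1 direction in 3 of 3 pairs was not counted, so these lists only describe the members. MAGEB10 had log2 changes of -0.40, -0.38 and -0.61, and edgeR without that filter gave -1.21 with an unadjusted p of 0.0059 and an adjusted p of 0.289. As groups the 3 parents and 3 resistant lines overlapped for MAGEA1, since the lineages differed in level by more than the states did. The counting ratios were 6.47 (5.04 to 8.41), 7.93 (1.19 to 337, on 1 and 13 counts) and 2.27 (2.06 to 2.505). Relative to MAGEA3 in the same library, MAGEA1 was at 0.112 in LnCaP and 0.538 in LnCaP-abl, and at 0.549 in LAPC4 and 1.20 in LAPC4-CR. On log2(scaled FPKM + 1) the mean change was 1.36 ± 1.00 (SD, n = 3 pairs). EdgeR's quasi-likelihood test with the parental line as a block gave a log2 change of 2.03 (SE 0.42) with an unadjusted p of 0.0024 and an adjusted p of 0.593, which does not pass 5%. DESeq2 on the same genes gave 2.06 (SE 0.49, adjusted p 0.0080), and edgeR without a filter on low values gave 2.22 (adjusted p 0.017). Without a filter 0.228% of genes were called higher and 0.139% lower. Whether MAGEA1 passed 5% was thus decided by the choice of tool and filter.

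Across the pairs, edgeR called 0 of 9 tested type I genes and 0 of 4 tested type II genes in either direction, beside 0.0% of all 16231 tested genes. At an unadjusted p under 0.05, edgeR had 728 genes higher and 548 lower, with MAGEA1 the only MAGE gene among them. DESeq2 called MAGEA1 alone of the 13, where 0.505% of all genes were called higher and 0.339% lower. Tested genes were those with a mean of 1 scaled FPKM or more over the 6 libraries. The 13 members that passed were MAGEA1, MAGEA2, MAGEA2B, MAGEA3, MAGEA4, MAGEA6, MAGEA10, MAGEA11, MAGEA12, MAGED1, MAGED2, MAGEF1 and MAGEH1.

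Within pairs, a change of at least 2-fold on log2(scaled FPKM + 1) was counted. In the LnCaP pair 2 of the 9 tested type I genes were higher by this measure, MAGEA1 and MAGEA4, and 0 lower, beside 7.27% of 11341 protein-coding genes higher and 4.04% lower. The VCaP pair had 1 higher, MAGEA3, and 0 lower, beside 2.12% and 1.95%. The LAPC4 pair had 1 higher, MAGEA1, and 0 lower, beside 6.15% and 4.72%. With 9 genes these counts are too small to be read against the background shares. MAGEA4 passed the filter on the mean level only through LnCaP-abl, at 66.2 against at most 2.35 in the other libraries. That favours a higher count and median in the LnCaP pair, so the 2 there are a description and not a test. Without the filter the same pair had 2 of 25 type I genes higher. The median change of the 9 genes was 0.32 in the LnCaP pair, 0.12 in that of VCaP and -0.04 in that of LAPC4, beside 0.08, -0.01 and 0.02 over all protein-coding genes tested. Over all 25 type I genes it was 0.05, 0.07 and -0.04.

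**Figure D4:**
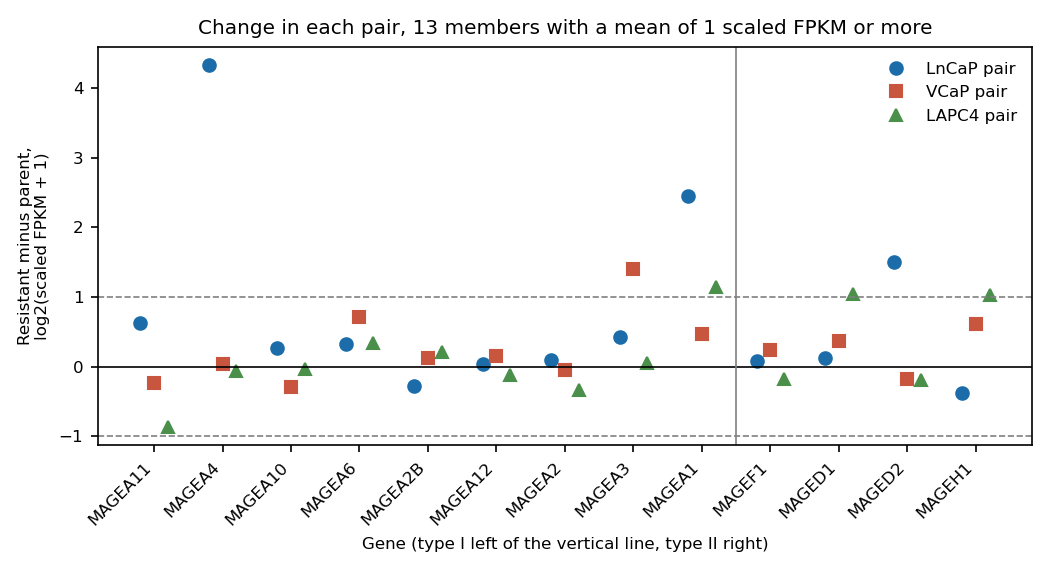
Points give the resistant minus the parent value on log2(scaled FPKM + 1) for the 13 members with a mean of 1 scaled FPKM or more, with 1 symbol per pair; dashed lines mark a 2-fold change and the vertical line divides type I from type II genes. MAGEA4 stands at 4.33 in the LnCaP pair, MAGEA1 is above 0 in each pair, and 0 of the points reach a 2-fold fall.

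Among the type II genes, MAGEF1, MAGED1 and MAGED2 were above 5 scaled FPKM in all 6 libraries. MAGED2, which is needed for salt transport in the fetal kidney, was the highest type II gene in each library other than LnCaP. It was at 20.1 in LnCaP and 58.5 in LnCaP-abl, a ratio of 2.91 (counting interval 2.65 to 3.21), at 47.1 and 41.6 in the VCaP pair and at 78.0 and 68.4 in the LAPC4 pair. LnCaP was the low library, and the other 5 lay within 2-fold of each other. MAGEF1, a partner of the ligase subunit NSMCE1, was at 24.1 and 25.5 in the LnCaP pair, 9.0 and 10.8 in the VCaP pair and 10.7 and 9.42 in the LAPC4 pair. Its mean change was 0.05 ± 0.21 (SD, n = 3 pairs), and its counting interval included no change in each pair.

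MAGED1, which binds the p75 neurotrophin receptor, went from 9.86 to 21.5 in the LAPC4 pair, a ratio of 2.18 (2.01 to 2.36). It was at 15.9 and 17.5 in the LnCaP pair and at 5.18 and 6.95 in the VCaP pair. The resistant library was higher in 3 of 3 pairs, and edgeR put the log2 change at 0.57 (SE 0.28) with an adjusted p of 0.657. MAGEH1 was highest in the VCaP lineage, where the block genes were lowest. It was at 22.0 and 34.2 in VCaP and VCaP-CR and at 3.71 and 8.64 in LAPC4 and LAPC4-CR, but at 0.444 and 0.116 in LnCaP and LnCaP-abl, on 6 and 2 counts. The ratio of resistant to parent was 1.55 (1.36 to 1.77) in the VCaP pair and 2.33 (1.79 to 3.06) in the LAPC4 pair. In the LnCaP pair it was 0.261 (0.026 to 1.46).

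MAGEE1, a partner of dystrobrevin, was at 2.19 in LnCaP and 1.42 in LnCaP-abl and at 0.320 to 0.565 in the other 4 libraries. MAGED4, MAGED4B, MAGEE2 and MAGEL2 stayed under 1 in every library. MAGEL2, an imprinted gene of the Prader-Willi region, had 1 count each in LnCaP-abl and LAPC4-CR and 0 in the other 4 libraries, which allows up to 0.130 scaled FPKM in LnCaP and less in the others. The broadly expressed class thus held 3 genes present in all lines, 2 that varied with lineage and 4 under 1 throughout. In the LnCaP pair 1 of the 4 tested type II genes was at least 2-fold higher, MAGED2. The VCaP pair had 0 and the LAPC4 pair 2, MAGED1 and MAGEH1, and 0 were lower in any pair. The shares of all protein-coding genes at least 2-fold higher were 7.27%, 2.12% and 6.15%, and with 4 genes the counts are too small to be read against them. Their median change was 0.10, 0.30 and 0.43, and over all 9 genes 0.05, -0.02 and 0.02. The summed type I level changed by 0.65 on the log2 scale from LnCaP to LnCaP-abl, by 0.49 from VCaP to VCaP-CR and by 0.27 from LAPC4 to LAPC4-CR. The summed type II level changed by 0.70, 0.15 and 0.08 in the same order.

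Related genes outside the name rule changed less than 2-fold. NDN, an imprinted MAGE relative, was at 18.3 and 14.3 in the LnCaP pair, and NDNL2, a subunit of the SMC5/6 complex, at 17.7 and 17.2. Of 3 such relatives 2 were tested, and 0 changed 2-fold in any pair. Of 15 partner ligases, targets and SMC5/6 subunits, all tested, 0 were called by edgeR across the pairs. In the LAPC4 pair 3 were 2-fold higher, in the VCaP pair 1 was 2-fold lower, and in the LnCaP pair 0 were 2-fold different. Of all protein-coding genes tested, 6.15% were 2-fold higher in the LAPC4 pair and 1.95% 2-fold lower in the VCaP pair. With 15 genes the counts are too small to be read against these shares. TRIM28, the ligase of the MAGEA3 and MAGEA6 proteins, was present in all 6 libraries at 100.4 to 155.4 scaled FPKM. LNX1, a ligase, had a log2 change of -1.41 from VCaP to VCaP-CR and of 1.89 from LAPC4 to LAPC4-CR.

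The neighbours of the block followed its lineage order in part. CSAG1, CSAG2 and CSAG3, whose entries lie between MAGEA6 and MAGEA3, were at 9.36 to 24.3 scaled FPKM in the LnCaP and LAPC4 lineages and at most 0.288 in VCaP and VCaP-CR. In the LnCaP and LAPC4 pairs none of the 3 changed 2-fold. Just beyond the block, CETN2 and NSDHL, which are expressed in most cells, were at 6.20 to 16.2 in all 6 libraries. GABRA3, a GABA receptor subunit gene on the other side, was at 6.69 in LAPC4, 1.10 to 2.04 in LnCaP, LnCaP-abl and LAPC4-CR, and 0.213 to 0.279 in the VCaP lineage. GABRE and GABRQ, also GABA receptor subunit genes on that side, were above 1 only in the LAPC4 lineage, at 3.39 and 3.08 for GABRE and 1.11 and 5.82 for GABRQ. NR0B1, beside the MAGEB cluster, did not reach the test. Of the 8 neighbours tested, 2 were 2-fold higher and 1 lower in the LAPC4 pair, and 0 in the LnCaP and VCaP pairs. Of all protein-coding genes tested, 6.15% were 2-fold higher and 4.72% lower in the LAPC4 pair. With 8 genes the counts are too small to be read against these shares.

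Other cancer-testis families on chromosome X were set beside the MAGE genes. The name starts took in 92 genes, of which 6 (SSX2IP and 5 CTAGE genes) are not on X, leaving 86 with 23 tested. In the LnCaP pair 13 of the 23 were at least 2-fold higher and 0 lower, in the VCaP pair 1 and 0, and in the LAPC4 pair 5 and 0. The shares over all protein-coding genes tested were 7.27% higher and 4.04% lower in the LnCaP pair. They were 2.12% and 1.95% in the VCaP pair and 6.15% and 4.72% in the LAPC4 pair. The 23 include families of near-identical copies such as GAGE, so the 13 are not independent. The filter on the mean level also took in the libraries being compared. GAGE12G and GAGE12I passed it only through LnCaP-abl, which favours a higher count in the LnCaP pair. The 13 are thus a description and not a test. The 86 genes summed to 147.5 in LnCaP against 657.8 in LnCaP-abl. They summed to 12.1 in VCaP against 15.0 in VCaP-CR, and to 178.8 in LAPC4 against 223.8 in LAPC4-CR. The VCaP lineage was the low one for these families too. NXF2B, a germline RNA export factor with a near-identical copy NXF2, was the 1 gene at least 2-fold higher in each pair, with log2 changes of 1.91, 2.23 and 1.44 and an edgeR adjusted p of 0.593. Chosen after their values were seen, PAGE1 was at 2.76 in LnCaP and 167.3 in LnCaP-abl, and CTAG2 at 0.217 and 45.2. EdgeR called 0 of the 23 across the pairs.

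Of 13 regulators of DNA methylation and heterochromatin, 12 were tested and edgeR called 0 across the pairs. DNMT1, the maintenance methyltransferase, was at 15.0 and 13.3 in the LnCaP pair, 6.82 and 6.92 in the VCaP pair and 6.33 and 14.3 in the LAPC4 pair. In the LnCaP pair the 1 gene with a 2-fold change was TET2, which oxidises methylcytosine and was at 2.16 in LnCaP and 6.63 in LnCaP-abl. In the VCaP pair 0 genes and in the LAPC4 pair 1 gene, DNMT1, changed by this measure. Over all protein-coding genes tested, 7.27%, 2.12% and 6.15% were 2-fold higher in the LnCaP, VCaP and LAPC4 pairs. In the same order 4.04%, 1.95% and 4.72% were 2-fold lower. With 12 genes the counts are too small to be read against these shares.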

How the data were processed

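RNeasy-purified total RNA was converted to SOLiD Total RNA-Seq libraries, per the labels' protocols. The submitters' processing notes name HTSeq and the hg18 build. The aligner, the annotation, the use of strand and the handling of reads with several matches are not stated there or in the labels. The authors deposited whole-number counts per gene, and FPKM values, which scale each count by the gene's length and the file's total (rebuilt within 1% for 100% of the values). Deposited gene starts were taken as 0-based and are printed with 1 added.

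Entries of small RNA classes (8763) were left out and entries sharing a symbol were summed. FPKM values were divided by a median-ratio factor per library (0.847 to 1.11, from 11600 genes reaching 1 FPKM in every library). Counts of the 16231 genes averaging 1 scaled FPKM or more were tested with edgeR 4.0.16 (R 4.3.3), using its quasi-likelihood test, TMM factors and a block for parental line, and Benjamini-Hochberg adjustment over all of them at 5%. DESeq2 1.42.0 and limma 3.58.1 were alternatives. Line names pair the samples, and deviations from the group means correlated within pairs at 0.48 (LnCaP), 0.752 (VCaP) and 0.612 (LAPC4). Counts were also simulated for the 16231 genes of this comparison. EdgeR recovered 84% of the 100 changes of 4-fold and 100% of the 100 changes of 16-fold, with 2 false calls. The simulation gave every gene the same dispersion (0.121) and changed only well-counted genes, by the same fold in each pair. It therefore does not give the recovery for real genes, whose spread differs by gene and whose changes differ between pairs. Within-pair changes use log2(scaled FPKM + 1), which understates changes of low genes. Counting intervals are exact 95% (Poisson for a count, Clopper-Pearson for a ratio) and, like the limit of 3 counts allowed by a count of 0, cover counting error only. A member that reached 1 scaled FPKM in a library is named with its values. Genes of the other lists are named where they changed 2-fold in 2 pairs or neighbour a MAGE cluster, and further ones as examples chosen after their values were seen. The values of 1 listed gene are not reported here. The members, lists and tests were chosen with earlier results of these data known.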

Additional observations from a re-analysis of the deposited data

Results flagged for a closer look

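In 3 members the counting interval of the ratio of resistant to parent lay above 1 in one pair and below 1 in another. The share of all genes that meet this rule is not given here, so the list only describes the members. The difference between the pairs was not tested, since each has 1 library per state. MAGEA11 had a ratio of 3.72 (1.71 to 9.23) in the LnCaP pair, on 8 and 38 counts, and 0.403 (0.311 to 0.522) in the LAPC4 pair, on 139 and 108 counts, and its log2 change in the first pair minus that in the second was 1.49. MAGED2 had 2.91 (2.65 to 3.21) in the LnCaP pair, 0.884 (0.824 to 0.948) in the VCaP pair and 0.877 (0.838 to 0.918) in the LAPC4 pair, with differences of 1.67 and 1.68 on the log2 scale. MAGEA2B had 0.819 (0.730 to 0.919) in the LnCaP pair and 1.17 (1.04 to 1.32) for LAPC4-CR over LAPC4. These differ by -0.49 on the log2 scale, and its near-identical copy MAGEA2 leaves its count uncertain.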

How the results depend on the processing

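Of 204 values of counts, medians and sums under alternatives, 188 stayed within 1.5 times the reported count or within the spread between pairs. Type I genes called higher across the pairs went from 0 to 1 (MAGEA1) in DESeq2 and to 1 without a filter; the fit without a filter also shifted the median of the tested genes by 0.154. Genes at least 2-fold higher in the VCaP pair went from 1 type I gene to 3 with a pseudocount of 0.25, 2 with TMM-scaled CPM and 0 with a pseudocount of 5. In the LAPC4 pair 1 type I gene was 2-fold lower with a pseudocount of 0.25 and 1 with TMM-scaled CPM, and 0 type II genes were 2-fold higher with a pseudocount of 5, where their median was 0.26. With no filter the medians were 0.051 for type I in the LnCaP pair, and -0.019 and 0.017 for type II in the VCaP and LAPC4 pairs, since more low genes enter. At a threshold of 0.5, 4 type I genes were counted in VCaP and 13 in LAPC4; at 5 there were 0 in VCaP and 0 in VCaP-CR.

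MAGEA1 kept its direction in 12 of 12 alternative fits and passed 5% in 2; leaving out 1 pair gave log2 changes of 1.495 to 2.73. Leaving out 1 pair gave -1.21 to 0.49 for MAGEA11, -0.014 to 3.31 for MAGEA4 (lowest without the LnCaP pair), -0.39 to 0.14 for MAGEA10, -0.021 to 0.34 for MAGEA2B, -0.013 to 0.26 for MAGEA12, -0.025 to 0.18 for MAGEF1 and -0.17 to 0.70 for MAGED2; the cause was not tested. Without the replicate block edgeR called 0 members, as with it, MAGEA1 was at 1.57 (adjusted p 1), and the signs of MAGEA10 (0.24), MAGEA2B (-0.089) and MAGEA12 (-0.022) turned. Without a filter MAGEA10 (0.045) and MAGEA2 (0.022) turned. Keeping small RNA genes or protein-coding genes only, both added after the data were seen, called 0 members. Over all genes, where edgeR called 0, DESeq2 called 82 higher and 55 lower, edgeR without a filter 95 and 58, and edgeR with 1 pair left out 0 to 13 higher and 1 to 20 lower.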
